A study of Homo sapiens with 12 samples.

Results

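The kallikrein-related peptidases are a family of secreted serine proteases, and 9 of them (KLK5, KLK6, KLK7, KLK8, KLK10, KLK11, KLK12, KLK13 and KLK14) were followed here. All probe sets whose single gene symbol in the platform annotation was one of these names were taken, which gave 16 probe sets for the 9 genes. The array as a whole held 54613 probe sets outside its controls, and 19775 genes had a probe set with a single symbol. RNA was measured in MCF-10A, an established non-tumorigenic line of human breast epithelium, on 12 Affymetrix arrays. Cells were taken 48 h after infection with a retrovirus, and each of 4 groups had 3 arrays. The control group carried the vector. The second group carried wild-type full-length Notch1. The third carried Notch1 L1601P+ΔP, called the mutant receptor below, and the last carried NICD. NICD is the intracellular domain of Notch1, the fragment that enters the nucleus. Some labels of the NICD samples also carry the letters gfp, with no word on what they mean. L1601P is a substitution in the domain that keeps the receptor closed, and ΔP stands for loss of the PEST region that shortens the life of the intracellular domain. All 4 groups are pools of infected cells of 1 line measured at 1 time. The replicates are called biological in the labels, with no word on separate infections, so the p-values speak to the spread among these arrays alone, and having 3 arrays in a group limits the precision.

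Kallikreins are made as inactive precursors that are cut by other proteases, often by another kallikrein, before they become active. In the outer layers of the skin KLK5, KLK7 and KLK14 cut the proteins that hold keratinocytes together, and SPINK and serpin inhibitors restrain them. Their genes lie side by side in 1 cluster on chromosome 19, and many are expressed in squamous and glandular epithelia. Notch receptors are cut on ligand binding, and the freed intracellular domain activates genes together with the DNA-binding protein RBPJ. In the epidermis Notch signalling is known to promote keratinocyte differentiation.

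NOTCH1 was read as the check of the constructs. Its probe set 223508_at had a mean log2 signal of 6.54 ± 0.20 (SD, n = 3) with vector, 9.16 ± 0.04 with full-length Notch1, 8.74 ± 0.02 with the mutant receptor and 8.79 ± 0.04 with NICD. A brighter one, 218902_at, lay between 9.44 and 9.72 in the group means. It was called higher than vector with NICD (0.28, adjusted p = 0.00881), and not with full-length Notch1 (0.08, adjusted p = 0.999) or the mutant receptor (0.06, adjusted p = 0.695). Breast epithelial markers were bright with vector, at 13.33 for KRT5 and KRT14 and 11.95 for CDH1, while the blood marker PTPRC was at 3.63 and the endothelial marker CDH5 at 3.60. The hormone receptor PGR was near 3.78. Other markers of these kinds read higher with vector, at 6.10 for CD3E (blood), 6.56 for PECAM1 (endothelium) and 6.32 for ESR1 (hormone receptor). The fibroblast markers COL1A2 and PDGFRB were at 5.22 and 5.78. Array medians ran from 5.64 to 5.697. RMA, the summary behind these values, compresses dim signals, so folds of dim probe sets are understated. In such bulk RNA, fewer cells expressing a gene and less RNA per cell cannot be told apart.

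The 3 members whose 250-base promoter windows hold the core letters of the RBPJ motif are shown first. Among them KLK10 and KLK14 gave the largest differences below, and KLK12 was not called in any comparison. A link between these letters and the differences was not tested. The windows are the bases before each start site in RefSeq's table (build GRCh38.p14). That table held 15 windows for 8 of the 9 genes, and had none for KLK8. Letters run 5′ to 3′ along the gene's strand, which is the minus strand of the chromosome for all 3 genes, and capitals mark TGGGAA or its reverse complement.
KLK10, chr19:51020044-51020069, core on the opposite strand: aggtatgcacTTCCCAttgatttcct
KLK10, chr19:51019961-51019986, core on the gene's strand: tccccgcgccTGGGAAgccttcttgg
KLK12, chr19:51035180-51035205, core on the opposite strand: gggctgggtcTTCCCAccctgggtcc
KLK14, chr19:51082983-51083008, core on the gene's strand: agtcctggaaTGGGAActaggcaata
The first core bases lay 198 and 115 bases before 1 annotated start of KLK10, and 193 before the start of KLK12. The window of the other KLK10 start held no match. The KLK14 match was 111 bases before 1 annotated start and 142 before another. TGGGAA, searched on both strands, was found in 4 of the 15 windows and in 3 of the 8 genes. The KLK14 windows that hold it share 1 match. Over all 35116 windows in the table it was found in 20.8%, and 24.6% of 27305 genes had it in at least 1 window. The AP-1 letters TGANTCA, a motif of the stress- and differentiation-linked Fos and Jun factors, were found in 0 of the 15 windows, against 6.57% of all windows and 8.06% of all genes. A match is only a description of letters, and binding was not measured. The KLK13 windows held neither motif, and KLK13 was called higher with NICD. The KLK5 window is shown because KLK5 was the member called lower with NICD, and it held neither motif.
KLK5, chr19:50953039-50953288, minus strand: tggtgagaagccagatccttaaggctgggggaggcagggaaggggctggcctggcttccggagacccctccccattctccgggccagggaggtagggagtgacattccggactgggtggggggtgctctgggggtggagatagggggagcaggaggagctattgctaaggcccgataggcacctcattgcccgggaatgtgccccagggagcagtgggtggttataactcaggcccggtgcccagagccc

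Every comparison was tested with limma over all 54613 probe sets, and a probe set is called where its Benjamini-Hochberg adjusted p was under 0.05. With NICD, KLK10, KLK14 and KLK13 were higher than with vector and KLK5 was lower. For KLK13 the call fell on its leading probe set alone, which read near the median of all values. The call fell on 5 of the 16 kallikrein probe sets, 4 higher and 1 lower, 31.2% of them. Over all probe sets NICD gave calls in 19.3%, in 6.75% as higher and in 12.6% as lower. So the higher kallikreins (4 of 16) stood against a background of 6.75% and the lower one against 12.6%. Both KLK10 probe sets are among the 4 higher ones. By leading probe sets, those of highest mean, 4 of the 9 genes were called, against 24.2% of all genes. The members were chosen with earlier results of these data known, so the contrast is not independent support. The median kallikrein difference was 0.15 log2 units, and the median over all probe sets was -0.02. At an unadjusted p under 0.05 the count was 8 of 16, where 29.8% of all probe sets had such a p. Under cyclic loess scaling the higher share of all called probe sets went from 34.9% to 49.1%, and the kallikreins became 6 higher and 0 lower. Of all probe sets 8.97% were then called higher and 9.29% lower.

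**Figure D1:**
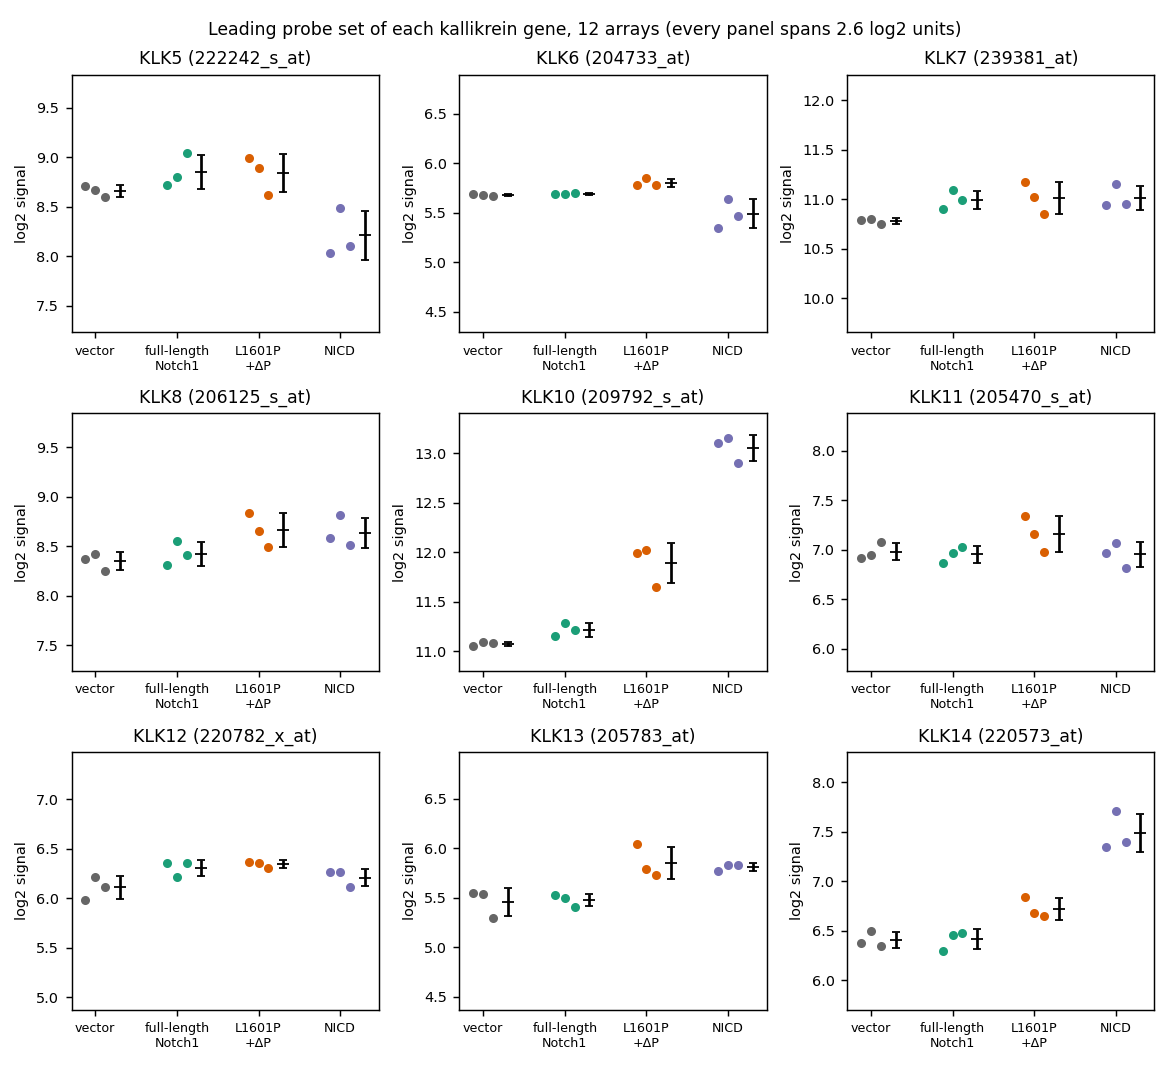
Log2 signal (y axis) of the leading probe set of each of the 9 kallikrein genes on the 12 arrays, 3 points per group, with group mean and SD as a black mark beside them. Every panel spans the same height; KLK10 and KLK14 step up to NICD, where KLK10 averages 13.05 against 11.07 with vector, and KLK5 is lowest with NICD at 8.21.

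KLK10, a kallikrein once described as lost in many breast cancer lines and with weak protease activity, changed most. Its leading probe set 209792_s_at, the brighter of its 2, read 11.05, 11.09 and 11.08 on the vector arrays. It read 13.10, 13.15 and 12.90 with NICD, 11.99, 12.02 and 11.65 with the mutant receptor, and 11.15, 11.28 and 11.21 with full-length Notch1. The 4 groups did not overlap, and their order was NICD, mutant receptor, full-length Notch1, vector. Such a lack of overlap is common with few arrays. Against vector it held for 33% of all probe sets with NICD, 24% with the mutant receptor and 10.6% with full-length Notch1. Between NICD and the mutant receptor it held for 29.1%, between NICD and full-length Notch1 for 32.7%, and between the last forms for 22.5%. NICD exceeded vector by 1.98 ± 0.10 (SE; 95% interval 1.77 to 2.19; adjusted p = 1.07e-08), which is 3.94-fold. The mutant receptor exceeded vector by 0.82 (95% interval 0.61 to 1.03; adjusted p = 0.000465), which is 1.76-fold. Full-length Notch1 was 0.14 above vector (95% interval -0.07 to 0.35; adjusted p = 0.986) and was not called.

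The dimmer KLK10 probe set 215808_at showed the same order. It read 6.92, 6.89 and 6.67 with vector, 6.88, 7.06 and 7.05 with full-length Notch1, 7.89, 7.85 and 7.49 with the mutant receptor and 8.94, 9.10 and 8.97 with NICD. Vector and full-length arrays overlapped here, and the others did not. NICD was 2.18 above vector (4.52-fold, adjusted p = 1.34e-08) and the mutant receptor 0.92 above it (1.89-fold, adjusted p = 0.000475). Full-length Notch1 was 0.17 above vector (adjusted p = 0.983). All called KLK10 differences kept their call in every alternative analysis that gave them a value.

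KLK14, a trypsin-like kallikrein of skin that can activate other kallikreins, rose with NICD. Its single probe set 220573_at read 6.38, 6.50 and 6.35 with vector, 6.30, 6.46 and 6.48 with full-length Notch1, 6.84, 6.68 and 6.65 with the mutant receptor and 7.35, 7.71 and 7.40 with NICD. The NICD arrays lay above all others, the mutant arrays lay above all vector and full-length arrays, and those last groups overlapped. NICD exceeded vector by 1.08 ± 0.10 (SE; 95% interval 0.87 to 1.29; adjusted p = 3.6e-06), 2.11-fold. The mutant receptor was 0.31 ± 0.10 above vector, and this was not called (adjusted p = 0.128). With full-length Notch1 the difference was 0.01. The means with vector and full-length Notch1, 6.41 and 6.42, lay below the 6.56 of PECAM1 with vector. In those groups signal above background was not shown.

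KLK13, a less studied family member, had 3 probe sets, of which 1 was called. Probe set 205783_at read 5.55, 5.54 and 5.30 with vector, 5.53, 5.50 and 5.41 with full-length Notch1, 6.04, 5.79 and 5.73 with the mutant receptor and 5.77, 5.83 and 5.83 with NICD. Both the mutant and the NICD arrays lay above all vector and full-length arrays. Group means of this probe set, from 5.46 to 5.85, lay near the median of all values, 5.67. They were below the 6.10 of the blood marker CD3E with vector, so signal above background was not shown. NICD was 0.35 ± 0.09 above vector (adjusted p = 0.0146), and without vector replicate 3 it was 0.27 above (adjusted p = 0.0671), no longer called. The mutant receptor was 0.39 ± 0.09 above vector (adjusted p = 0.0394), and this call was lost in 12 of 18 alternatives, where the highest adjusted p was 0.15. The other KLK13 probe sets, 216670_at and 217315_s_at, differed by 0.02 and 0.18 between NICD and vector and were not called. Their 95% intervals, -0.31 to 0.36 and -0.11 to 0.48, overlap that of 205783_at, 0.15 to 0.54.

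KLK5, a trypsin-like kallikrein that can start the activation of others in skin, was the member with the lower reading. Its probe set 222242_s_at read 8.71, 8.67 and 8.60 with vector, 8.72, 8.80 and 9.04 with full-length Notch1, 8.99, 8.89 and 8.62 with the mutant receptor and 8.03, 8.49 and 8.10 with NICD. All 3 NICD arrays lay below all others. NICD was lower than vector by a difference of -0.46 ± 0.13 (SE; 95% interval -0.74 to -0.18; adjusted p = 0.0244). Under cyclic loess scaling the difference was -0.36 (adjusted p = 0.0611) and the call was lost, as it was without vector replicate 1 (adjusted p = 0.0751), vector replicate 2 (0.0634), NICD replicate 1 (0.103) or NICD replicate 3 (0.087). Against full-length Notch1 the difference was -0.65 (adjusted p = 0.00308) and against the mutant receptor -0.63 (adjusted p = 0.00529), and both kept their call in all 18 alternatives.

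KLK7, the chymotrypsin-like partner of KLK5 in skin, was bright and moved little. Its leading probe set 239381_at averaged 10.78 ± 0.03 (SD, n = 3) with vector, 10.99 ± 0.09 with full-length Notch1, 11.01 ± 0.16 with the mutant receptor and 11.01 ± 0.12 with NICD. All 9 arrays with a Notch1 construct lay above the vector arrays, which are the same 3 arrays in each comparison. Differences from vector were 0.22 (full-length), 0.24 (mutant) and 0.23 (NICD), with adjusted p = 0.958, 0.206 and 0.0904, and none was called. The NICD difference was called under cyclic loess (0.32, adjusted p = 0.019). The second KLK7 probe set, 205778_at, gave 0.22, 0.32 and 0.20 in the same order, none of them called.

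KLK8, known as neuropsin and made in brain and skin, gave no call. Probe set 206125_s_at averaged 8.35 ± 0.09 (SD, n = 3) with vector, 8.42 ± 0.12 with full-length Notch1, 8.66 ± 0.17 with the mutant receptor and 8.63 ± 0.15 with NICD. The NICD difference of 0.28 (95% interval 0.06 to 0.51; adjusted p = 0.0743) and the mutant difference of 0.31 (adjusted p = 0.16) were not called. Under cyclic loess the NICD difference was 0.38 (adjusted p = 0.0174) and was called. Its dimmer probe set 1552319_a_at differed from vector by 0.07, 0.21 and 0.09 for full-length, mutant and NICD. A further probe set, annotated to both KLK9 and KLK8, was left out by the choice of members. It was at 6.23 with vector and 5.97 with NICD, a difference of -0.27 that was not called (adjusted p = 0.0529), opposite in sign to the values of the other KLK8 probe sets.

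KLK6, a trypsin-like protease also found in brain, was called in 1 comparison. Probe set 204733_at read 5.69, 5.68 and 5.67 with vector, 5.69, 5.69 and 5.70 with full-length Notch1, 5.78, 5.85 and 5.78 with the mutant receptor and 5.34, 5.64 and 5.47 with NICD. The NICD arrays were the lowest and the mutant arrays the highest. Group means, from 5.49 to 5.80, lay near the median of all values, 5.67, and signal above background was not shown. NICD was below the mutant receptor by a difference of -0.31 ± 0.07 (adjusted p = 0.01), and this call was lost when the fit held only the arrays of these groups (adjusted p = 0.0615). The NICD difference from vector, -0.19 (95% interval -0.34 to -0.04; adjusted p = 0.0841), was not called. Without NICD replicate 2 it was -0.27 (adjusted p = 0.0101), which was called.

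KLK11, a trypsin-like kallikrein, and KLK12, whose known substrates include growth factors, gave no call. The KLK11 probe set 205470_s_at averaged 6.98 with vector, 6.95 with full-length Notch1, 7.16 with the mutant receptor and 6.95 with NICD. Its NICD difference was -0.03 (95% interval -0.24 to 0.18). The 3 KLK12 probe sets, 220782_x_at, 233586_s_at and 234316_x_at, had group means from 5.55 to 6.35. These probe sets lay below the 6.56 of the endothelial marker PECAM1 with vector, so signal above background was not shown. Those with _x_at in their names may also capture related transcripts. The leading one was 0.11 higher with NICD than with vector, 0.24 higher with the mutant receptor (adjusted p = 0.131) and 0.21 higher with full-length Notch1 (adjusted p = 0.952).

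**Figure D2:**
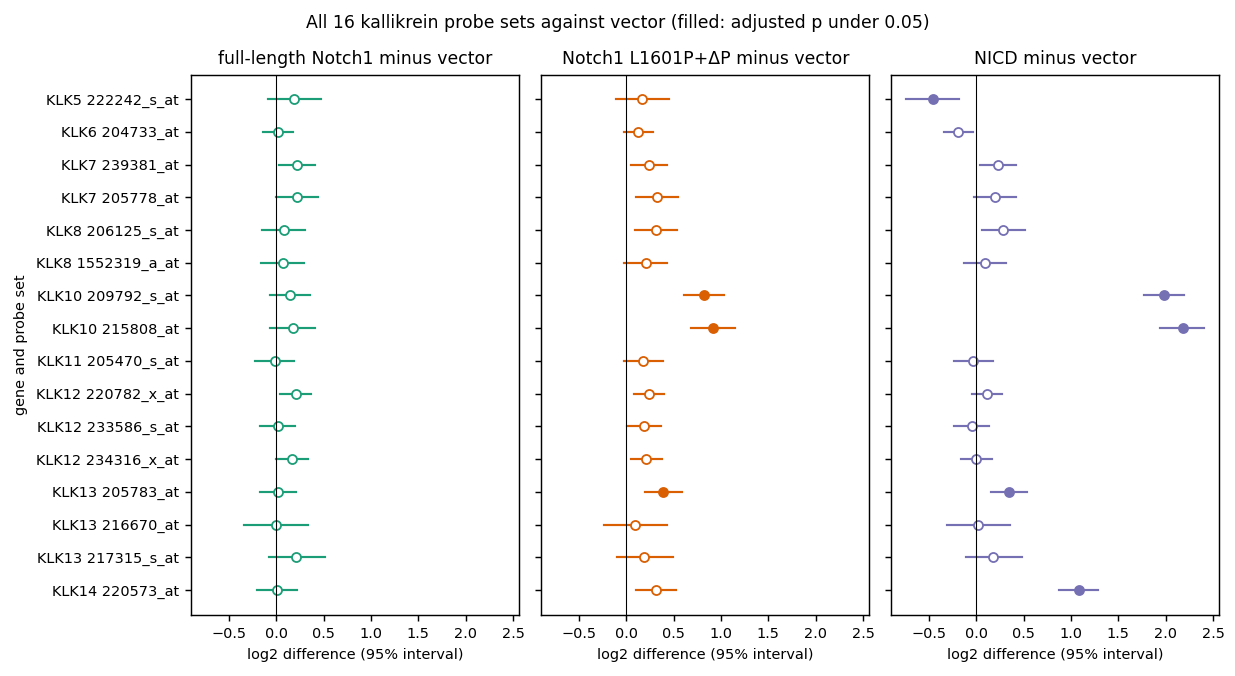
Log2 difference from vector (x axis) of all 16 kallikrein probe sets (y axis) in 3 panels, full-length Notch1, Notch1 L1601P+ΔP and NICD, with bars for the 95% interval of the limma fit and filled points where the adjusted p was under 0.05. The KLK10 probe sets lie at 1.98 and 2.18 in the NICD panel, KLK14 at 1.08, and no point is filled for full-length Notch1.

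With Notch1 L1601P+ΔP all 16 kallikrein differences from vector were positive, with a median of 0.22 against -0.01 over all probe sets. A positive median was not particular to these members. In the gene lists read below, with 1 probe set per gene, it was 0.14 for the other kallikreins and 0.18 for kallikrein substrates and receptors. It was 0.12 for activating proteases and their inhibitors and 0.03 for genes flanking the cluster. The call fell on 3 of 16, the pair of KLK10 probe sets and KLK13, 18.8% of them, all higher. Over all probe sets 2.39% were called, 1.10% as higher and 1.29% as lower. At an unadjusted p under 0.05 the count was 10 of 16, all higher, against 16.4% of all probe sets. Cyclic loess scaling moved the higher share of all called probe sets from 46.1% to 57.8%, and left 2 kallikrein calls. Of all probe sets 1.25% were then called higher and 0.914% lower.

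With full-length Notch1, 0 of the 16 probe sets differed from vector by limma's adjusted p, and 3 did at an unadjusted p under 0.05, where 5.13% of all probe sets did so. The background of calls was 0.0110% of all probe sets. Of the 16 differences 14 were positive, with a median of 0.11 against -0.01. The largest in the leading probe sets were the KLK7 and KLK12 values given above.

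The Notch1 forms were then set against each other. These comparisons share arrays with those above, so each is given for its own values. NICD exceeded the mutant receptor for both KLK10 probe sets, by 1.16 (2.24-fold, adjusted p = 3.16e-06) and 1.26 (adjusted p = 4.61e-06), and for KLK14, by 0.76 (adjusted p = 0.000137). KLK5 and KLK6 were lower with NICD, as given above. These were 5 calls of 16, 31.2%, 3 higher and 2 lower, where 13.0% of all probe sets were called, 6.04% higher and 7.01% lower. Cyclic loess moved the higher share of all calls from 46.3% to 55.1% and left the kallikrein counts at 3 higher and 2 lower. Of all probe sets 7.27% were then called higher and 5.93% lower. The KLK13 difference was -0.04 and was not called, which does not show that both forms act alike.

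Against full-length Notch1, NICD was higher for KLK10 (1.84, adjusted p = 2.21e-08, and 2.01, adjusted p = 3e-08), KLK14 (1.07, adjusted p = 4.05e-06) and KLK13 (0.33, adjusted p = 0.0215). It was lower for KLK5. This made 5 of 16 probe sets, 31.2%, 4 higher and 1 lower, against 18.2% of all probe sets, 7.14% higher and 11.1% lower. Cyclic loess took the higher share of all calls from 39.2% to 51.2% and left the kallikrein counts as they were. Of all probe sets 8.81% were then called higher and 8.40% lower. The KLK13 call was lost in 3 alternatives, with the highest adjusted p at 0.0834. Notch1 L1601P+ΔP exceeded full-length Notch1 for the KLK10 probe sets alone, by 0.68 (adjusted p = 0.00276) and 0.75 (adjusted p = 0.00316). These 2 of 16, 12.5%, stood against 1.63% of all probe sets, 0.925% higher and 0.709% lower, and cyclic loess moved the higher share of all calls from 56.6% to 67.1%. KLK13, at 0.37, was not called there (adjusted p = 0.0635).

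Single arrays stood out across the family. Among the leading probe sets of the 9 genes, mutant receptor replicate 1 was the highest of its group in 7, and replicate 3 the lowest in 8. Over all probe sets these arrays held those places in 30.5% and 34.7%. NICD replicate 2 was the highest of its group in 8 of 9, against 36.9% of all probe sets, and full-length Notch1 replicate 1 the lowest in 7, against 34.5%. The median kallikrein deviation from the group mean was 0.16 and -0.17 log2 units on the mutant replicates 1 and 3, 0.14 on NICD replicate 2 and -0.09 on full-length replicate 1. Each of these medians over all probe sets lay within 0.01 of 0. The part of these arrays in the results above was not tested beyond leaving each out in turn.

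**Figure D3:**
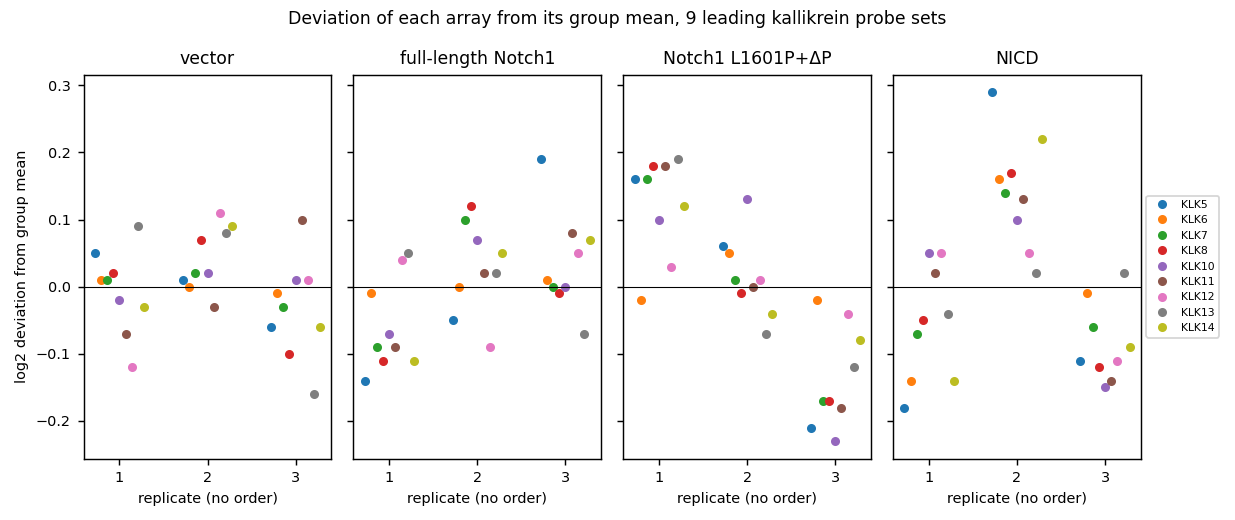
Deviation of each array from its group mean in log2 units (y axis) for the leading probe set of the 9 kallikrein genes, with the 3 replicates of each group along the x axis (no order) and 1 colour per gene. Most points lie above 0 on mutant replicate 1 and NICD replicate 2 and below 0 on mutant replicate 3, where the median is -0.17.

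In RefSeq's gene order KLK5, KLK6, KLK7 and KLK8 are followed by KLK9 and then by KLK10 to KLK14. The lowest NICD reading relative to vector was at KLK5, the highest at KLK10, and KLK11 and KLK12 next to KLK10 were not called. The neighbours KLK13 and KLK14 were both called higher. For the counts that follow, 19.3% of all probe sets and 24.2% of the leading probe sets of all genes were called for NICD against vector. The 5 measured genes of the 6 other kallikreins (KLK1, KLK2, KLK3, KLK4 and KLK15) had 17 probe sets, of which 0 were called in any comparison by limma. At an unadjusted p under 0.05, 1 of the 17 passed for NICD against vector, where the differences ran from -0.20 to 0.23. With vector, the KLK2 and KLK15 probe sets and most of those of KLK3 and KLK4 read below the 6.56 of PECAM1. Signal above background was not shown for these. KLK9 has no probe set of its own in this annotation. Of the 20 genes flanking the cluster, 1 was called for NICD against vector, ETFB (a mitochondrial electron carrier subunit), at -0.24 (adjusted p = 0.0359). For the mutant receptor and full-length Notch1 the count was 0 of 20 by limma, with 4 and 1 at an unadjusted p under 0.05. Among the flanking genes only JOSD2 (7.21) and ETFB (10.39) read above the 6.56 of PECAM1 (endothelium) with vector. For the others signal above background was not shown, so a lack of calls there says little.

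**Figure D4:**
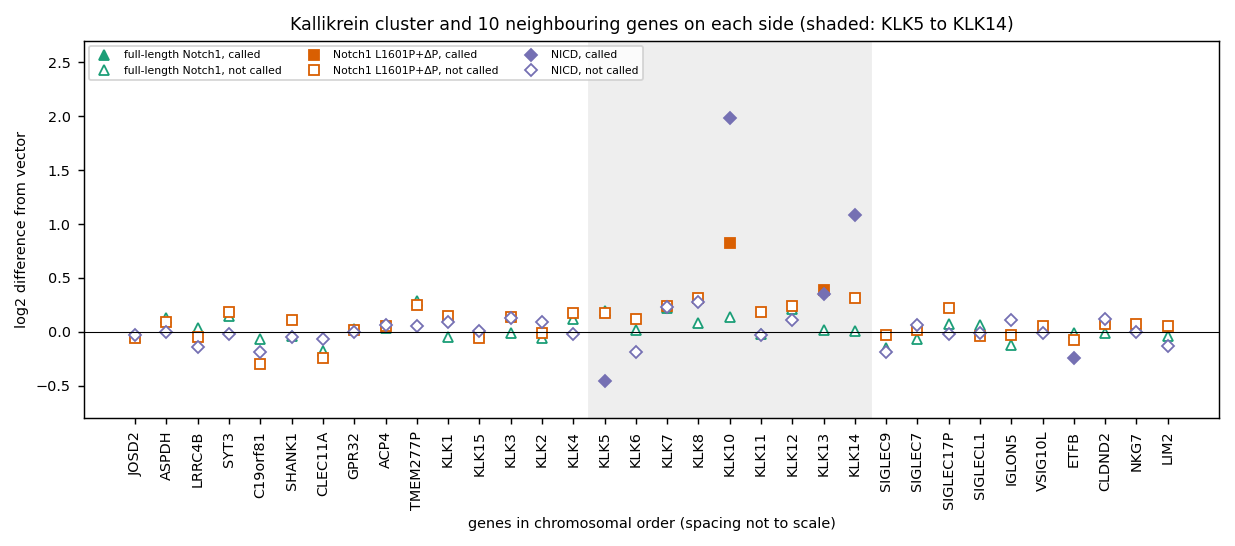
Log2 difference from vector (y axis) of 1 probe set per gene for the kallikrein cluster and 10 genes on each side, in chromosomal order (x axis, spacing not to scale), coloured by construct and filled where called. Among the kallikreins KLK10, KLK13, KLK14 and KLK5 are filled for NICD, and the flanking genes lie between -0.24 and 0.12 for NICD.

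Genes that act with kallikreins were read from lists, with the probe set of highest mean per gene. By this choice of probe set the background was the 24.2% given above for NICD against vector and 3.40% for the mutant receptor against vector. Of 9 measured inhibitors of kallikreins, 3 were higher with NICD and 0 lower, with a median difference of 0.04 against -0.02 over all genes. SERPINA3, a serpin that inhibits chymotrypsin-like proteases, went from 10.81 to 14.45 (difference 3.64, adjusted p = 1.29e-12). SPINK6, a skin inhibitor of kallikreins, went from 7.10 to 8.12 (difference 1.03, adjusted p = 3.56e-06), and SERPINF2, the plasmin inhibitor, from 6.31 to 6.91 (difference 0.60, adjusted p = 0.00298). The vector mean of SERPINF2 lay below the 6.56 of PECAM1, so signal above background was not shown there. With the mutant receptor SERPINA3 (2.47, adjusted p = 5.72e-10) and SPINK6 (0.41, adjusted p = 0.0363) were higher and SERPINA1 lower (-0.35, adjusted p = 0.0325). With full-length Notch1, SERPINA3 alone was called (0.55, adjusted p = 0.0163).

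Of 10 genes for proteases that can activate kallikreins and for their inhibitors, 2 were lower with NICD and 0 higher, with a median of 0.07. They were PRSS8, a membrane-anchored serine protease (7.84 to 7.30, difference -0.54, adjusted p = 0.00132), and ST14, which encodes matriptase (9.66 to 9.32, difference -0.35, adjusted p = 0.00866). With the mutant receptor 0 were called by limma, and 4 passed an unadjusted p under 0.05. Of 11 measured substrates and receptors, 4 were higher with NICD and 0 lower, with a median of 0.20. These were IGFBP3, which binds insulin-like growth factors (5.88 to 8.11, difference 2.23, adjusted p = 9.16e-09), the thrombin receptor F2R (7.48 to 8.47, difference 0.99, adjusted p = 1.83e-05), the desmosomal cadherin DSG1 (3.51 to 4.04, difference 0.54, adjusted p = 0.0112) and the cytokine IL1B (8.42 to 8.93, difference 0.51, adjusted p = 0.000572). DSG1 lay near the level of the markers PTPRC and CDH5 in all groups, so its signal was not shown to be above background. The vector mean of IGFBP3 lay below the 6.56 of PECAM1, so its signal with vector was not shown to be above background. IGFBP3 (1.11, adjusted p = 9.5e-05) and IL1B (0.80, adjusted p = 0.000133) were also higher with the mutant receptor.

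Of 9 Notch response genes 6 were higher with NICD and 5 with the mutant receptor. NRARP, a Notch feedback gene, went from 6.63 to 11.06 with NICD. With full-length Notch1 the count was 0 in the limma test, where 1 had an unadjusted p under 0.05. The keratinocyte suprabasal markers, which are known from the differentiated layers of the epidermis, were also higher. Of the 4 listed, 3 were measured (KRT1, KRT10 and IVL), and all 3 were called higher with NICD and with the mutant receptor. IVL, a protein of the cornified envelope, went from 6.62 with vector to 9.87 with NICD, and KRT10 from 12.03 to 12.72. The log2 of their summed signal ran from 11.93 to 12.17 over the vector arrays, from 12.29 to 12.36 with full-length Notch1, from 12.68 to 12.78 with the mutant receptor and from 12.87 to 12.94 with NICD. KRT10 alone ran from 11.88 to 12.13 over the vector arrays, so it made up most of this sum. With full-length Notch1 0 of the 3 were called by limma, and 2 had an unadjusted p under 0.05. KRT1 group means, from 5.24 to 5.79, lay below the 6.56 of PECAM1 with vector. Of the basal markers KRT5 (0.58) and KRT14 (0.57) were called higher with NICD and ITGA6 lower (-1.07), and of the general epithelial markers KRT8 was higher (0.37) while EPCAM (-0.74) and KRT18 (-0.24) were lower. The part of these markers in the kallikrein differences was not tested. Markers of blood, endothelium, fibroblasts and luminal hormone receptors, 2 of each, gave 0 calls by limma for NICD against vector and 0 at an unadjusted p under 0.05.

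For the 3 members with the largest NICD differences, the most alike genes over the 12 arrays were found by the root-mean-square distance between log2 values, each centred on its own mean, among 19766 genes. For KLK10 they were S100A3 at 0.12, HIPK2 at 0.13 and C1orf74 at 0.13 log2 units, where the median gene lay at 0.80. For KLK14 they were TGM2 at 0.09, ISG20 at 0.10 and ARHGEF37 at 0.10, where the median was 0.47. For KLK5 they were SPRR1A at 0.09, HSD11B2 at 0.10 and SPRR1B at 0.11, where the median was 0.31, and SPRR1A and SPRR1B, which encode cornified envelope proteins, were at -0.65 and -0.60 for NICD minus vector.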

How the data were processed

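The values are the log2 signals deposited by the authors, 1 column per array and 54675 probe sets, of which 62 controls were left out. Per the submitters' processing notes RMA and limma were used, with versions not given in the sources used here. RMA subtracts background, applies quantile normalization, which gives all arrays nearly the same distribution and hides a shift common to most genes, and summarises probes. Values ran from 2.27 to 15.01. Gene names are those of the platform annotation.

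All 12 arrays were fitted together in limma 3.58.1 (R 4.3.3) with group means as terms and no block, leaving 8 residual degrees of freedom and 4.3 prior ones. The 6 comparisons, two-sided, were adjusted by Benjamini-Hochberg over 54613 probe sets, with calls at 0.05. The fit was tested on simulated data. Alternatives covered scaling, moderation, dim probe sets, separate fits, the block and each array left out. A gene's leading probe set had its highest mean. Array values are given for leading probe sets of members called anywhere, list genes for called ones with the largest changes. KLK10's second probe set, KLK7, KLK8, KLK11 and KLK12, the markers and ETFB were added. Members and lists were chosen with earlier results of these data known.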

Additional observations from a re-analysis of the deposited data

How the results depend on the processing

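Over 18 alternatives and 96 pairs of a kallikrein probe set and a comparison, 20 were called in the reported analysis and 27 there or in an alternative. The other 69 were never called, and no called difference changed sign. For NICD against vector the count of called kallikrein probe sets was 5 of 16. It was 8 of 14 when dim probe sets, those with no group mean above the median of all values, were left out. This was the only count to move by over 1.5 times. In that setting 11324 of 28500 probe sets were called over all, against 10565 of 54613 in the reported analysis. Whether the replicate numbers pair the arrays was not settled. Same-numbered arrays' deviations correlated between -0.202 and 0.237, and differently numbered arrays were not compared. With the numbers as a replicate block the kallikrein counts stayed at 5, 3 and 0 against vector for NICD, Notch1 L1601P+ΔP and full-length Notch1. Array number and dim signals limit small differences.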
